A study of Homo sapiens with 12 samples.

Results

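The 10 genes described here encode enzymes that modify collagen and elastin: the collagen prolyl 4-hydroxylase alpha subunits P4HA1, P4HA2 and P4HA3, the lysyl hydroxylases PLOD1, PLOD2 and PLOD3, and the lysyl oxidases LOX, LOXL1, LOXL2 and LOXL4. They were chosen by name from the 34694 gene symbols listed in at least 1 of the 2 expression tables of the study. All 10 had values in KYSE150 and 9 in KYSE410, where P4HA3 was not analysed. KYSE150 and KYSE410 are established human esophageal cancer cell lines, both labelled WT. The compared groups were KYSE150 in hypoxia (0.5% oxygen, time point 48 h), KYSE150 in normoxia (21% oxygen, time point 0), KYSE410 in hypoxia (0.5% oxygen, time point 48 h) and KYSE410 in normoxia (21% oxygen, time point 0), with 3 RNA-seq libraries each. The study's design text gives 48 h for both oxygen levels, so the time spent in normoxia is given in different ways by the labels. No other agent or allele is named, and the labels do not say whether the 3 libraries of a group came from separate cultures, so the p-values rest on a spread that may be technical only.

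Collagen chains are hydroxylated in the endoplasmic reticulum before they fold. Prolyl 4-hydroxylases are tetramers of alpha subunits, which carry the active site, and the beta subunit P4HB, and their product, 4-hydroxyproline, stabilises the collagen triple helix. Lysyl hydroxylases modify lysines, in the helix or in the telopeptides, which sets the type of crosslink that can form later. Both enzyme classes use molecular oxygen, 2-oxoglutarate, iron and ascorbate. Lysyl oxidases are copper enzymes that act mainly outside the cell, where they oxidise lysines and hydroxylysines to aldehydes that then form crosslinks. Several of these genes, among them P4HA1, P4HA2, PLOD1, PLOD2, LOX and LOXL2, are known targets of the hypoxia-inducible factors in other cells.

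Values are FPKM, fragments per kilobase of transcript and library size, so that levels of different genes can be set side by side per length. No file header names this unit: it was read from values that are not whole and from library sums between 351501 and 425094, which are not the fixed sum of TPM or CPM. Low values showed no steps of whole reads (at most 0.566% of low genes shared the commonest ratio between any pair of libraries), so the depth is unknown. Precision was judged from the spread between libraries, and the counting error of low values is not known. All 6 genes chosen to check the treatment (CA9, NDRG1, BNIP3, ADM, ANKRD37 and PGK1) were higher in hypoxia in both lines, with summed levels of 2096 to 2171 FPKM in hypoxia against 237.1 to 251.4 FPKM in normoxia in KYSE150, and of 2077 to 2234 FPKM against 123.7 to 131.6 FPKM in KYSE410. These genes were chosen with earlier results of these data known, so they are no independent check of the treatment. ANKRD37 averaged 0.753 FPKM in KYSE150 normoxia and 0.484 FPKM in KYSE410 normoxia. It reached the mean of 1 FPKM needed for a test through its hypoxia libraries only. Of 8 squamous markers, KRT5, KRT14, KRT6A, TP63, DSG3, DSC3 and SFN were at 1 FPKM or more in KYSE410. SOX2 was at 0.0174 FPKM in hypoxia and 0.0175 FPKM in normoxia there. In KYSE150 only SFN reached 1 FPKM, and KRT5 averaged 0.0777 FPKM in hypoxia and was listed at 0 in normoxia. Of the epithelial markers in KYSE150, KRT8 and KRT18 were at 313 and 369.9 FPKM in hypoxia. CDH1 was at 0.102 FPKM in hypoxia and 0.372 FPKM in normoxia there, and KRT19 at 0.0396 and 0 FPKM. Of 10 fibroblast markers only COL1A1 (4.64 FPKM in hypoxia and 5.89 FPKM in normoxia) and PDGFRB (0.74 and 1.62 FPKM) reached 1 FPKM in any KYSE150 group, and none did in KYSE410. The fibroblast sum was 5.65 to 6.23 FPKM in hypoxia against 8.0 to 8.22 FPKM in normoxia in KYSE150 and 0.564 to 0.856 FPKM against 0.900 to 1.71 FPKM in KYSE410, with COL1A2 and POSTN listed at 0 in KYSE150 normoxia and in KYSE410 hypoxia; its part in the results below was not tested. The endothelial sum stayed under 0.192 FPKM in every library, and of the leukocyte markers only CD68 reached 1 FPKM, at 28.4 FPKM in hypoxia and 16.3 FPKM in normoxia in KYSE150 and 83.4 and 31.5 FPKM in KYSE410, while PTPRC was at most 0.0162 FPKM in any group. KYSE150 normoxia replicate 2 stood apart from the other libraries of its group: its log2 values differed from theirs by an SD of 0.339 and 0.369, where every other pair of replicates lay between 0.153 and 0.197. In KYSE410 the sample numbers run from 56 to 58 in hypoxia and from 38 to 40 in normoxia, and in KYSE150 from 53 to 55 and from 50 to 52, so in KYSE410 the oxygen level and a possible difference between sets of libraries cannot be told apart.

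In each line, most of the genes with values were higher in the hypoxia libraries than in the normoxia libraries. P4HA1, LOX (KYSE150) and LOXL2 (KYSE410) differed most, and the expression of P4HA3, PLOD3, LOXL1 and LOXL4 took other courses. In KYSE150, 6 members rose in hypoxia (P4HA1, P4HA2, PLOD1, PLOD2, LOX and LOXL2) and 3 fell (P4HA3, PLOD3 and LOXL1), while LOXL4 was too low to test. In KYSE410, 7 members rose (P4HA1, P4HA2, PLOD1, PLOD2, PLOD3, LOXL1 and LOXL2) and LOXL4 fell, while LOX was too low to test. A gene was tested where its mean was at least 1 FPKM in the fit, and a call needs an adjusted p below 0.05 (limma on log2(FPKM + 1), Benjamini-Hochberg over all genes tested). The background was large: of 12692 genes tested in KYSE150, 23.5% were called higher and 38.8% lower, and of 12054 in KYSE410, 31.2% were called higher and 51.9% lower. How many of all genes had groups that lay apart was not counted, so lying apart does not single out the members. The median log2 change was 1.10 over the 9 members tested in KYSE150 against -0.13 over all genes tested, and 1.37 over the 8 members tested in KYSE410 against -0.21 over all genes. These shifts of the whole table depended on scaling. Median-of-ratios scaling put the medians of all genes at 0.015 and -0.032 and gave 4004 higher and 3692 lower calls in place of 2981 and 4925 in KYSE150, and 4841 and 5194 in place of 3763 and 6254 in KYSE410. Quantile normalization gave 3913 higher and 4049 lower calls in KYSE150 and 4889 and 5014 in KYSE410, and removing the trend with transcript length gave 3721 and 3657, and 4767 and 4676. Rescaling to a common sum gave 2746 higher and 7503 lower calls in KYSE410. Relative to the median of all genes, the member changes ran from -0.66 for P4HA3 to 2.18 for P4HA1 in KYSE150 and from -0.68 for LOXL4 to 2.69 for P4HA1 in KYSE410. In bulk RNA, fewer cells expressing a gene and less RNA per cell cannot be told apart.

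**Figure D1:**
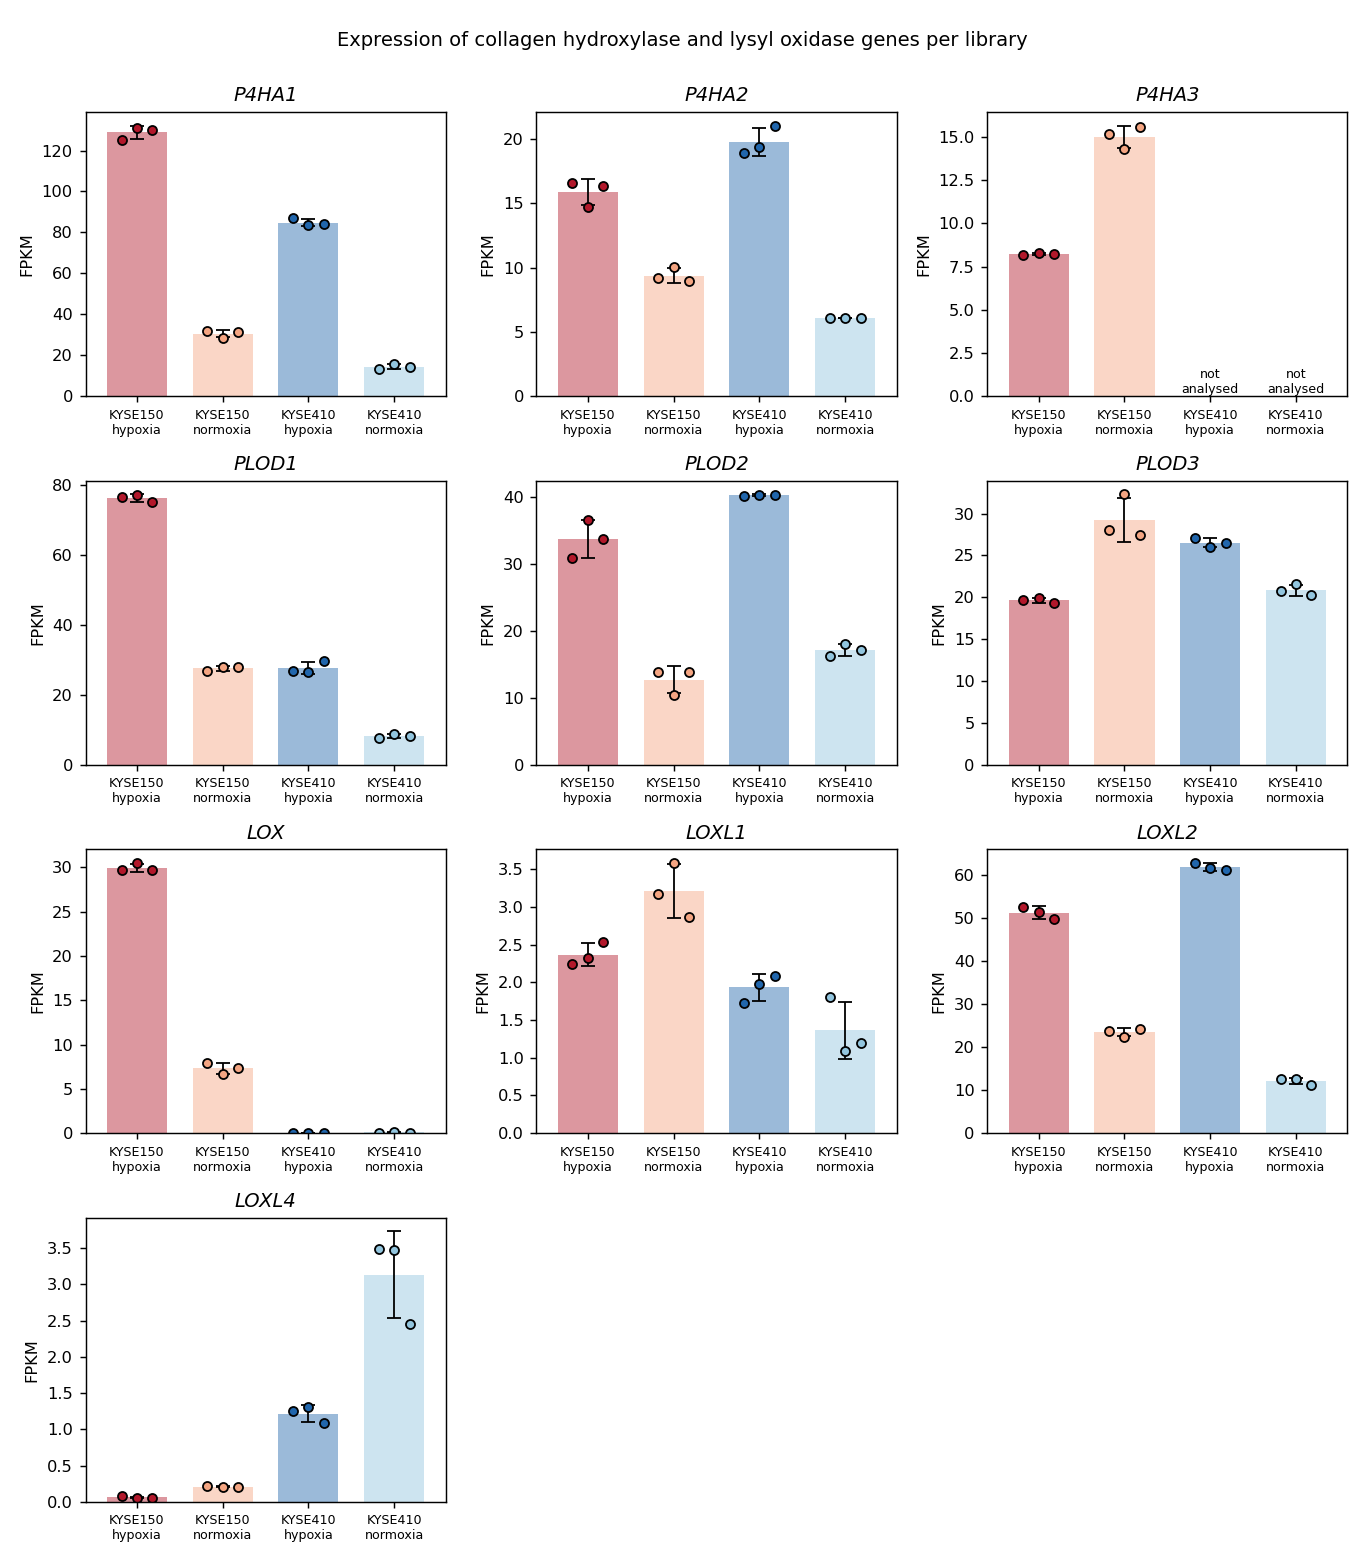
FPKM of each of the 10 genes (vertical axes, linear, starting at 0 and differing between panels) in the 4 groups; bars are means, error bars SD and points the 3 libraries of a group. P4HA1, P4HA2, PLOD1, PLOD2 and LOXL2 are higher in every hypoxia library than in every normoxia library of the same line, whereas LOXL1 overlaps between the groups in KYSE410. How many of all genes have groups that lie apart was not counted.

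**Figure D2:**
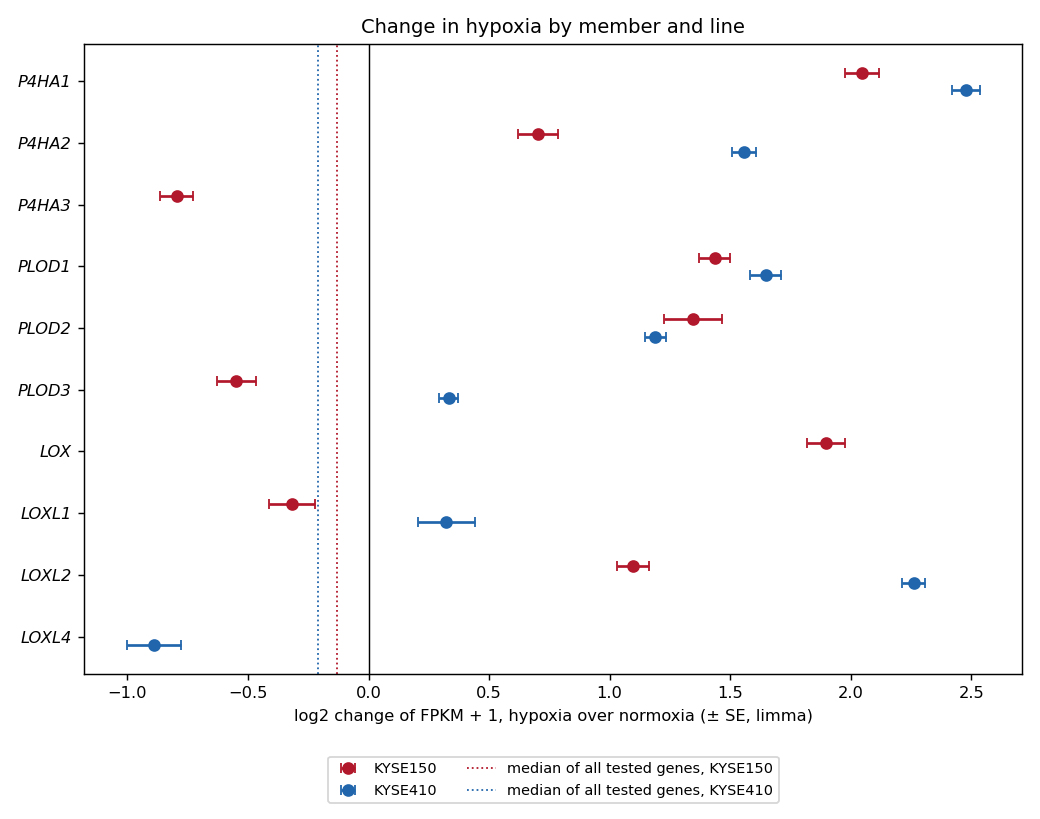
Log2 change of FPKM + 1 in hypoxia over normoxia (horizontal axis) for each gene, with KYSE150 in red and KYSE410 in blue; points are limma estimates, bars their SE, and dotted lines the median of all tested genes. P4HA1 lies at 2.05 in KYSE150 and 2.48 in KYSE410, and PLOD3 and LOXL1 lie on opposite sides of 0 in the 2 lines.

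P4HA1 encodes the widely expressed alpha subunit and was the most abundant member in hypoxia in both lines. Its gene lies on chromosome 10 from 73007217 to 73096974, minus strand (GRCh38, GENCODE 29). In KYSE150 it had 125, 131 and 130.3 FPKM in the hypoxia libraries, against 31.6, 28.5 and 31.4 FPKM in the normoxia libraries. In KYSE410 it had 87.0, 83.5 and 83.9 FPKM in hypoxia, against 13.3, 15.7 and 14.3 FPKM in normoxia. Every hypoxia library was far above every normoxia library, and the means differed 4.23-fold in KYSE150 and 5.88-fold in KYSE410. The log2 change was 2.05 ± 0.07 (SE, n = 3 per group; limma, adjusted p = 7.67e-07) in KYSE150 and 2.48 ± 0.06 (adjusted p = 7.467e-09) in KYSE410, which placed P4HA1 at rank 68 of 12692 genes and rank 48 of 12054 genes from the highest change.

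P4HA2, the alpha subunit best known from cartilage and bone cells, was a smaller part of the pool. The gene lies on chromosome 5 from 132191838 to 132295315, minus strand. KYSE150 had 16.6, 14.7 and 16.4 FPKM in hypoxia, against 9.18, 10.02 and 8.93 FPKM in normoxia. KYSE410 had 19.0, 19.4 and 21.0 FPKM in hypoxia, against 6.08, 6.05 and 6.05 FPKM in normoxia. The groups were apart in both lines, with a ratio of means of 1.69 in KYSE150 and 3.27 in KYSE410. On the log2 scale it changed by 0.70 ± 0.08 (adjusted p = 0.0001891) in KYSE150 and 1.56 ± 0.05 (adjusted p = 2.708e-08) in KYSE410.

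P4HA3, an alpha subunit that is scarce in most tissues, moved the other way in KYSE150. It is encoded on chromosome 11 from 74235801 to 74311657, minus strand. It had 8.14, 8.28 and 8.23 FPKM in hypoxia, against 15.2, 14.3 and 15.6 FPKM in normoxia. All hypoxia libraries were below all normoxia libraries, and the log2 change was -0.80 ± 0.07 (adjusted p = 4.91e-05). Exons of the protein-coding gene PPME1 on the opposite strand overlap P4HA3, and how the authors counted strands is not given in the sources used here, so their reads may not be told apart. PPME1 averaged 41.7 ± 2.48 FPKM in hypoxia and 15.8 ± 0.37 FPKM in normoxia in KYSE150 (SD, n = 3 each), the opposite order to P4HA3.

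The members that rose and the members that did not can be set beside their promoter sequences. RefSeq (GRCh38.p14) gave a window for 8 of the 10 genes, and none for P4HA3 and LOXL2. The 250 bases before the annotated start were searched on both strands for ACGTG and GCGTG, the core letters of the hypoxia response element. Of 35116 windows of this length in the same table, 18.5% held ACGTG, 32.2% held GCGTG and 43.2% held either. The windows of P4HA1 (chr10:73096867-73097116, minus strand), PLOD1 (chr1:11934467-11934716, plus strand), PLOD2 (chr3:146161185-146161434, minus strand) and LOX (chr5:122078260-122078509, minus strand) are shown because these genes rose and their windows hold a match, and that of PLOD3 (chr7:101217582-101217831, minus strand) because its 2 lines moved in opposite directions and it holds none. Each runs 5′ to 3′ along the gene's strand, and capitals mark the matches, with CACGT being ACGTG on the opposite strand.
P4HA1: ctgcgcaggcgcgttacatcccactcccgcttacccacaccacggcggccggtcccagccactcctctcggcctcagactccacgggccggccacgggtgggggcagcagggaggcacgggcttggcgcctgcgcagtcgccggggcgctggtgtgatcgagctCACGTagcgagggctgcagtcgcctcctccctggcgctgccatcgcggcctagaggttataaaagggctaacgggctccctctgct
PLOD1: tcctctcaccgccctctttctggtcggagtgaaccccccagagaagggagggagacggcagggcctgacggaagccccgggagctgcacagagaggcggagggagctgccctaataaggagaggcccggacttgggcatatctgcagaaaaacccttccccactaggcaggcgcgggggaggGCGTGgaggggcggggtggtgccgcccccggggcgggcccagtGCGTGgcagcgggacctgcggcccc
PLOD2: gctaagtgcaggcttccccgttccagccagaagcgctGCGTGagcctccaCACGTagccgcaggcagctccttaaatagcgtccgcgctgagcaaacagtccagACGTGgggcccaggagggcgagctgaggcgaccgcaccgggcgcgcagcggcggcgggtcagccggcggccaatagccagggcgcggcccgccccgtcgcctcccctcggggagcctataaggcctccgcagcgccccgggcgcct
LOX: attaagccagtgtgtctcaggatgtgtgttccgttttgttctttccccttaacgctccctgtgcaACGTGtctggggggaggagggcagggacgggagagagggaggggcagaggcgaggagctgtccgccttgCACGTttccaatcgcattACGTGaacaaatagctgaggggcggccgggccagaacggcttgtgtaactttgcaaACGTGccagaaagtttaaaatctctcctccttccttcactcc
PLOD3: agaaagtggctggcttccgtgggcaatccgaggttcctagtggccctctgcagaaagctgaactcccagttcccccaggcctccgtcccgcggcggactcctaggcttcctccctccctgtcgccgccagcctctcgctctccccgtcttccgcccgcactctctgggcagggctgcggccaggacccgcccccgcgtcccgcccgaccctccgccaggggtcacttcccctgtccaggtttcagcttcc

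P4HA1 held 1 match, ACGTG from base -86 to -82 on the minus strand relative to the gene. PLOD1 held 2 GCGTG matches, ending 64 and 21 bases before the start. PLOD2 held 3 matches, GCGTG 1 time and ACGTG 2 times, and the LOX window above held 4 ACGTG matches, the closest from -42 to -38. At least 3 matches were found in 7.76% of all windows and at least 4 in 3.22%. LOX has further windows for 2 other starts in the same table, each with 2 matches. No match was found in the windows of P4HA2, PLOD3, LOXL1 and LOXL4, of which P4HA2 rose in both lines. The P4HA2 window (chr5:132227092-132227341) lies inside the GENCODE span of the gene, which ends at 132295315 on its 5′ side. The windows of PLOD1, PLOD2, PLOD3 and LOXL1 also lie inside the spans given for these genes. Starts other than those in RefSeq were not searched. The windows printed above were picked by change and match together, so they cannot test a link between match and change. A match is a run of letters and not a shown binding site, and its absence says only that these letters are not in this window.

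PLOD1 encodes the lysyl hydroxylase best known for modifying lysines in the collagen helix. Its gene lies on chromosome 1 from 11934205 to 11975538, plus strand, with no overlapping gene in GENCODE 29. KYSE150 had 76.8, 77.2 and 75.2 FPKM in hypoxia, against 26.8, 28.1 and 27.9 FPKM in normoxia. KYSE410 had 26.8, 26.7 and 29.7 FPKM in hypoxia, against 7.60, 8.76 and 8.16 FPKM in normoxia. The groups were apart in both lines, and the hypoxia libraries of KYSE410 overlapped the normoxia libraries of KYSE150 (means of 27.7 and 27.6 FPKM). The log2 change was 1.44 ± 0.06 (adjusted p = 1.987e-06) in KYSE150 and 1.65 ± 0.06 (adjusted p = 6.15e-08) in KYSE410.

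PLOD2 encodes the lysyl hydroxylase that modifies telopeptide lysines, on which stable pyridinoline crosslinks depend. It is encoded on chromosome 3 from 146069440 to 146163653, minus strand. KYSE150 had 30.9, 36.5 and 33.7 FPKM in hypoxia, against 13.9, 10.4 and 13.8 FPKM in normoxia, where the low value is that of replicate 2. KYSE410 had 40.2, 40.4 and 40.4 FPKM in hypoxia, against 16.2, 18 and 17.2 FPKM in normoxia. The groups were apart, with ratios of means of 2.65 in KYSE150 and 2.35 in KYSE410. On the log2 scale it changed by 1.35 ± 0.12 (adjusted p = 5.342e-05) in KYSE150 and 1.19 ± 0.04 (adjusted p = 5.162e-08) in KYSE410.

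PLOD3 encodes a lysyl hydroxylase that also transfers sugars onto hydroxylysine. Its locus is on chromosome 7 from 101205977 to 101218420, minus strand. KYSE150 had 19.7, 19.9 and 19.3 FPKM in hypoxia, against 28.1, 32.3 and 27.4 FPKM in normoxia. KYSE410 had 27.1, 26.0 and 26.5 FPKM in hypoxia, against 20.7, 21.6 and 20.3 FPKM in normoxia. Hypoxia libraries were all lower in KYSE150 and all higher in KYSE410. The log2 change was -0.55 ± 0.08 (adjusted p = 0.0006491) in KYSE150 and 0.33 ± 0.04 (adjusted p = 5.699e-05) in KYSE410. The KYSE410 value depended on scaling, at 0.10 (adjusted p = 0.0364) after rescaling to a common sum and 0.54 (adjusted p = 2.005e-06) with median-of-ratios scaling. Exons of ZNHIT1 on the opposite strand overlap PLOD3, and ZNHIT1 averaged 38.3 FPKM in hypoxia and 52.9 FPKM in normoxia in KYSE150 and 79.7 and 48.1 FPKM in KYSE410, the same order as PLOD3. With the strand setting unknown, reads of the 2 genes may not be told apart.

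LOX encodes the founding lysyl oxidase, which crosslinks collagen and elastin after secretion, and was above 1 FPKM in KYSE150 only, of the 2 lines. The gene lies on chromosome 5 from 122063195 to 122078360, minus strand. KYSE150 had 29.7, 30.5 and 29.7 FPKM in hypoxia, against 7.87, 6.69 and 7.39 FPKM in normoxia. Every hypoxia library was above every normoxia library, with a ratio of means of 4.09 and a log2 change of 1.90 ± 0.08 (adjusted p = 1.471e-06, rank 93 of 12692). KYSE410 had 0.0295, 0.0245 and 0.0621 FPKM in hypoxia, against 0.0686, 0.124 and 0.0709 FPKM in normoxia. These values lie under the level at which genes were tested; a two-sided exact permutation test of the 3 against 3 libraries gave p = 0.1, the smallest that this design allows. SRFBP1, whose exons overlap LOX on the opposite strand, averaged 3.82 FPKM in hypoxia and 7.28 FPKM in normoxia in KYSE150, and 3.13 and 10.2 FPKM in KYSE410.

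LOXL1, a lysyl oxidase known for elastic fibre homeostasis, was low in both lines. Its locus is on chromosome 15 from 73925989 to 73952137, plus strand. KYSE150 had 2.24, 2.33 and 2.54 FPKM in hypoxia, against 3.17, 3.58 and 2.87 FPKM in normoxia. KYSE410 had 1.73, 1.98 and 2.09 FPKM in hypoxia, against 1.80, 1.09 and 1.19 FPKM in normoxia. The groups were apart in KYSE150 and overlapped in KYSE410. The log2 change was -0.32 ± 0.10 (adjusted p = 0.02103) in KYSE150 and 0.32 ± 0.12 (adjusted p = 0.03162) in KYSE410, and neither call was stable: adjusted p reached 0.1982 in KYSE150 with the length trend removed and 0.215 in KYSE410 after rescaling to a common sum, while the KYSE410 change was 0.54 with quantile normalization. The call was lost in KYSE150 without normoxia replicate 1 (adjusted p = 0.05352), hypoxia replicate 1 (0.07417) or hypoxia replicate 2 (0.06657), and in KYSE410 on leaving out normoxia replicate 2 (0.1043), normoxia replicate 3 (0.09154), hypoxia replicate 2 (0.07883) or hypoxia replicate 3 (0.09528). The antisense gene LOXL1-AS1, whose exons overlap LOXL1, was at 2.35 FPKM in hypoxia and 3.71 FPKM in normoxia in KYSE150 and at 1.18 and 2.22 FPKM in KYSE410.

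LOXL2, a lysyl oxidase that crosslinks collagen IV and is much studied in tumour invasion, was the main lysyl oxidase transcript in both lines. The gene lies on chromosome 8 from 23297189 to 23425328, minus strand. KYSE150 had 52.7, 51.4 and 49.8 FPKM in hypoxia, against 23.8, 22.4 and 24.2 FPKM in normoxia. KYSE410 had 62.9, 61.6 and 61.2 FPKM in hypoxia, against 12.6, 12.5 and 11.3 FPKM in normoxia. The groups were apart in both lines, and the ratio of means was 2.19 in KYSE150 and 5.10 in KYSE410. It rose on the log2 scale by 1.10 ± 0.07 (adjusted p = 9.021e-06) in KYSE150 and 2.26 ± 0.05 (adjusted p = 4.838e-09, rank 61 of 12054) in KYSE410. ENTPD4, whose exons overlap LOXL2 on the same strand, stood in the opposite order, at 3.27 FPKM in hypoxia and 5.07 FPKM in normoxia in KYSE150 and at 5.76 and 13.7 FPKM in KYSE410.

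LOXL4, a further member of the lysyl oxidase family, was expressed above 1 FPKM only in KYSE410 of the 2 lines. The gene lies on chromosome 10 from 98247690 to 98268250, minus strand. KYSE410 had 1.26, 1.31 and 1.09 FPKM in hypoxia, against 3.49, 3.47 and 2.45 FPKM in normoxia. All hypoxia libraries were lower, and the log2 change was -0.89 ± 0.11 (adjusted p = 8.502e-05). KYSE150 had 0.0723, 0.0576 and 0.0567 FPKM in hypoxia, against 0.2198, 0.203 and 0.202 FPKM in normoxia, values too low for the fit and again apart (two-sided exact permutation p = 0.1, the smallest possible). Without KYSE150 normoxia replicate 2, the 9 members tested in KYSE150 kept their calls, with log2 changes from -0.83 for P4HA3 to 2.0 for P4HA1.

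Summed over each family, levels were higher in hypoxia in both lines, and the shares of the members changed, with smaller shares for some members that rose. The alpha subunits summed to 153.1 ± 2.60 FPKM in hypoxia and 54.9 ± 1.76 FPKM in normoxia in KYSE150 (SD, n = 3 each), and P4HA1 and P4HA2 to 104.6 ± 1.57 and 20.5 ± 1.21 FPKM in KYSE410. P4HA1 made up 84.3% of the KYSE150 sum in hypoxia and 55.5% in normoxia, while P4HA3 made up 5.37% and 27.4%. P4HA2, although it rose, made up 10.4% in hypoxia and 17.1% in normoxia in KYSE150 and 18.9% and 29.6% in KYSE410. In KYSE410 P4HA1 made up 81.1% in hypoxia and 70.4% in normoxia of a sum without P4HA3. The lysyl hydroxylases summed to 129.7 ± 3.38 FPKM in hypoxia and 69.6 ± 1.08 FPKM in normoxia in KYSE150 and to 94.6 ± 1.82 and 46.2 ± 1.96 FPKM in KYSE410. The most abundant lysyl hydroxylase differed by line in hypoxia: PLOD1 held 58.9% of the sum in hypoxia and 39.7% in normoxia in KYSE150, whereas PLOD2 held 42.7% and 37.1% in KYSE410. PLOD3 held 15.2% in hypoxia and 42.0% in normoxia in KYSE150, and 28.1% and 45.2% in KYSE410. The 4 lysyl oxidases summed to 83.7 ± 1.37 FPKM in hypoxia and 34.2 ± 1.17 FPKM in normoxia in KYSE150 and to 65.1 ± 0.75 and 16.7 ± 1.56 FPKM in KYSE410. LOX made up 35.8% of that sum in hypoxia and 21.4% in normoxia in KYSE150, where LOXL2 made up 61.3% and 68.6%. LOXL2 made up 95.1% in hypoxia and 72.7% in normoxia in KYSE410, where LOXL4 made up 1.87% and 18.7%. LOXL1 made up 2.83% in hypoxia and 9.40% in normoxia in KYSE150 and 2.97% and 8.11% in KYSE410. Hypoxia and normoxia libraries did not overlap in any of these sums or shares; no test was made on them.

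**Figure D3:**
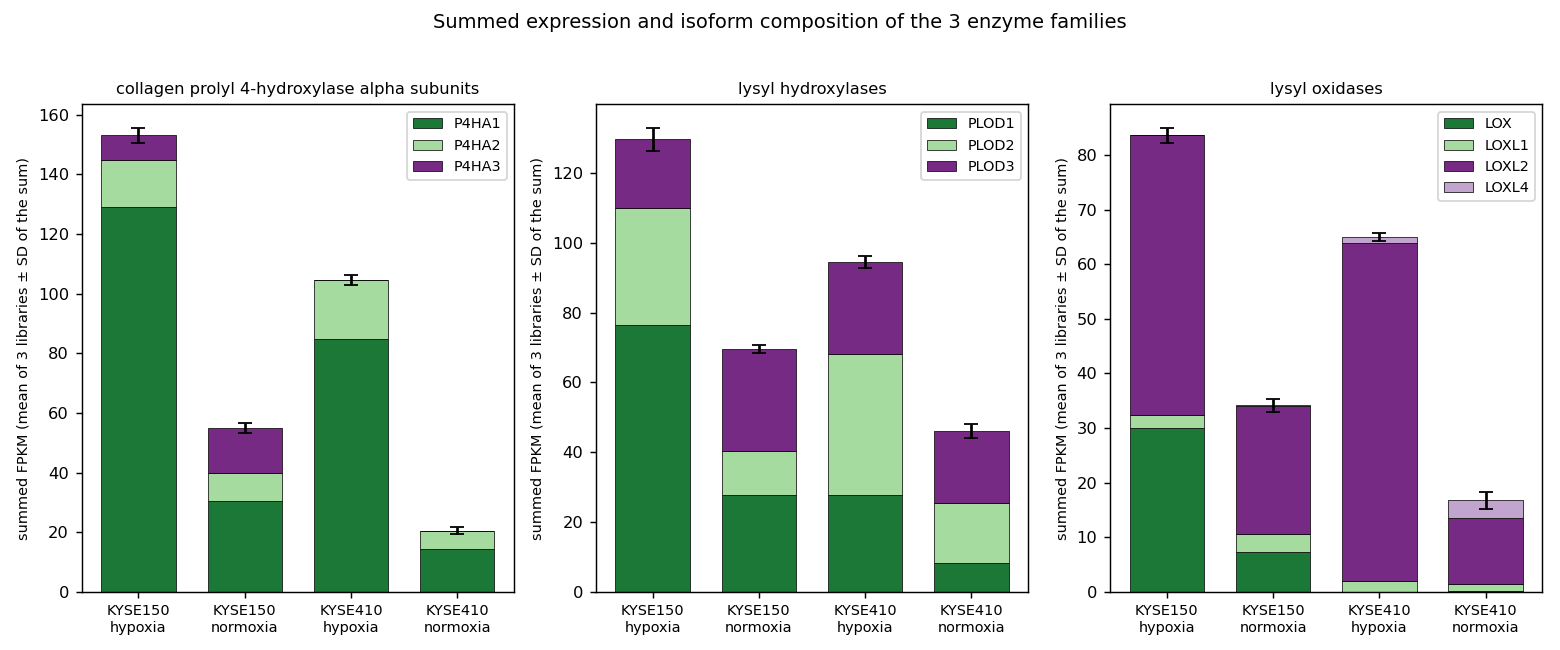
Summed FPKM (vertical axes, starting at 0) of the alpha subunits, lysyl hydroxylases and lysyl oxidases in each group, stacked by gene; bars are means of 3 libraries and error bars the SD of the sum, and the alpha subunit sum in KYSE410 is without P4HA3. P4HA1 fills 84.3% of the KYSE150 hypoxia bar, and LOXL2 fills 95.1% of the lysyl oxidase bar of KYSE410 in hypoxia, where LOX is absent from view.

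P4HB, the beta subunit that keeps the alpha subunits soluble and is also a protein disulfide isomerase, was measured against the alpha subunit sum. It averaged 220.3 ± 4.49 FPKM in hypoxia and 242.0 ± 25.3 FPKM in normoxia in KYSE150, a log2 change of -0.13 ± 0.09 that was not called (adjusted p = 0.2494). In KYSE410 it averaged 299.2 ± 0.58 FPKM in hypoxia and 102.0 ± 2.95 FPKM in normoxia, a rise of 1.54 ± 0.03 (adjusted p = 4.298e-09). The sum of alpha subunits per P4HB was 0.695 ± 0.025 in hypoxia and 0.229 ± 0.029 in normoxia in KYSE150, and 0.350 ± 0.006 and 0.201 ± 0.013 in KYSE410. P4HB was above the summed alpha subunits in every group mean.

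The order of levels differed between lines and oxygen levels. In KYSE150 hypoxia it ran from P4HA1 through PLOD1, LOXL2, PLOD2, LOX, PLOD3, P4HA2, P4HA3 and LOXL1 to LOXL4. In KYSE150 normoxia P4HA1, PLOD3 and PLOD1 led with overlapping libraries, followed by LOXL2, P4HA3, PLOD2, P4HA2, LOX, LOXL1 and LOXL4. In KYSE410 hypoxia P4HA1, LOXL2 and PLOD2 led, PLOD1 and PLOD3 overlapped, and P4HA2, LOXL1, LOXL4 and LOX followed. In KYSE410 normoxia PLOD3 and PLOD2 were above P4HA1, and LOX was again the lowest.

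Most members were lower in KYSE410 than in KYSE150 in normoxia, and several changed places in hypoxia. Counts are given for the 7 members that averaged at least 1 FPKM in each line, since LOX and LOXL4 reached the level for testing through 1 line only and P4HA3 was not analysed in KYSE410. In normoxia 1 of the 7 was higher in KYSE410 (PLOD2) and 6 were lower, against 40.4% of 12653 genes called higher and 38.8% lower. In hypoxia 4 were higher in KYSE410 (P4HA2, PLOD2, PLOD3 and LOXL2), 2 lower (P4HA1 and PLOD1) and LOXL1 was not called (adjusted p = 0.1059), against 36.6% called higher and 43.6% lower. The median member difference was -0.84 in normoxia and 0.26 in hypoxia, against 0.018 and -0.082 over all genes. The 2 tables were deposited separately, so a level set across them rests on both having been normalised alike. Sample numbers run from 38 to 40 in KYSE410 normoxia and from 50 to 52 in KYSE150 normoxia. In hypoxia they run from 56 to 58 and from 53 to 55. The line and a possible difference between sets of libraries therefore cannot be told apart in normoxia, nor can the changes of place between oxygen levels. LOX, given without a test, averaged 0.0387 FPKM in KYSE410 and 29.9 FPKM in KYSE150 in hypoxia and 0.0878 and 7.32 FPKM in normoxia. LOXL4, also without a test, averaged 1.22 FPKM in KYSE410 and 0.0622 FPKM in KYSE150 in hypoxia and 3.14 and 0.208 FPKM in normoxia. LOXL1 was lower in KYSE410 in normoxia, with a log2 difference of -0.84 ± 0.11 (adjusted p = 1.37e-05). PLOD1 was lower in KYSE410 at both oxygen levels, with log2 differences of -1.43 ± 0.06 in hypoxia (adjusted p = 2.435e-10) and -1.64 ± 0.06 in normoxia (adjusted p = 6.621e-11). P4HA1 was lower in KYSE410 too, with log2 differences of -0.60 ± 0.06 in hypoxia (adjusted p = 1.923e-06) and -1.03 ± 0.06 in normoxia (adjusted p = 1.088e-08). LOXL2 averaged 61.9 FPKM in KYSE410 and 51.3 FPKM in KYSE150 in hypoxia, but 12.1 and 23.5 FPKM in normoxia. The hypoxia difference of LOXL2, 0.27 ± 0.05 (adjusted p = 0.000653), was 0.16 with quantile normalization (adjusted p = 0.02128) and lost after rescaling to a common sum (adjusted p = 0.1448), whereas its normoxia difference was -0.90 ± 0.05 (adjusted p = 1.011e-08). PLOD3 and P4HA2 also stood higher in KYSE410 in hypoxia (0.42 ± 0.06, adjusted p = 4.26e-05, and 0.30 ± 0.06, adjusted p = 0.0009752) and lower in normoxia (-0.47 ± 0.06, adjusted p = 1.6e-05, and -0.55 ± 0.06, adjusted p = 5.605e-06). After rescaling to a common sum, the hypoxia differences were 0.27 for PLOD3 (adjusted p = 0.0001244) and 0.16 for P4HA2 (adjusted p = 0.02554). PLOD2 was higher in KYSE410 at both levels, by 0.26 ± 0.10 in hypoxia (adjusted p = 0.02756) and 0.41 ± 0.10 in normoxia (adjusted p = 0.001737). The hypoxia call of PLOD2 was lost when any of 5 libraries was left out: KYSE150 hypoxia replicate 1 (adjusted p = 0.1123) or 3 (0.05756) or KYSE410 hypoxia replicate 1 (0.05763), 2 (0.06111) or 3 (0.06067).

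The change in hypoxia itself differed between the lines for 6 of the 7 members that averaged at least 1 FPKM in each line. The difference was taken as the KYSE410 log2 change minus the KYSE150 log2 change in a joint fit of all 12 libraries; 6 members were called higher and 0 lower, against 27.3% and 36.0% of 12653 genes, and the median of the 7 was 0.64 against -0.087 over all genes. Rescaling to a common sum moved the median of all genes to -0.289 and gave 2356 higher and 6011 lower calls in place of 3453 and 4560. LOXL2 rose more in KYSE410, by 1.16 ± 0.08 (adjusted p = 2.174e-07). PLOD3 differed by 0.88 ± 0.09 (adjusted p = 4.481e-06), P4HA2 by 0.85 ± 0.09 (adjusted p = 9.112e-06) and LOXL1 by 0.64 ± 0.15 (adjusted p = 0.003249). P4HA1 differed by 0.43 ± 0.09 (adjusted p = 0.001222), a call lost after rescaling to a common sum (0.19, adjusted p = 0.1634). PLOD1 differed by 0.21 ± 0.08 (adjusted p = 0.04495), which was -0.026 after rescaling to a common sum and was lost without any of 7 libraries, with adjusted p from 0.06637 without KYSE150 hypoxia replicate 2 to 0.1157 without KYSE410 hypoxia replicate 3. The other 5 were KYSE150 normoxia replicate 3 (0.07215), KYSE150 hypoxia replicates 1 (0.069) and 3 (0.08906), and KYSE410 normoxia replicates 1 (0.1137) and 3 (0.07573). PLOD2 was not called (-0.16 ± 0.14, adjusted p = 0.3292). The KYSE410 normoxia libraries, with sample numbers 38 to 40, enter each of these differences. A possible difference between sets of libraries cannot be told apart from them.

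**Figure D4:**
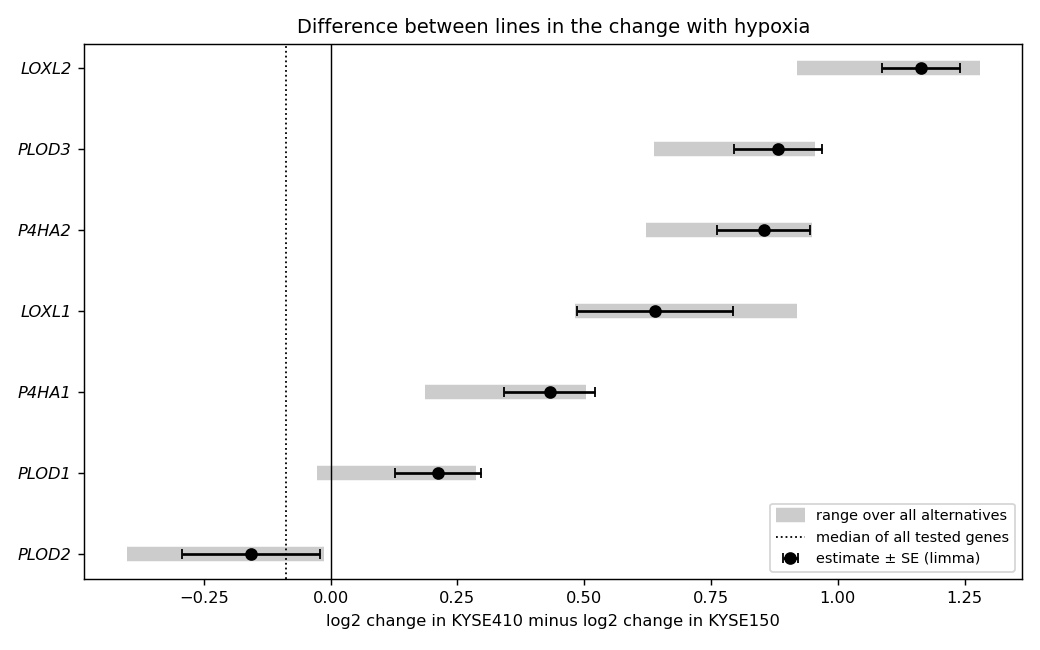
Log2 change in KYSE410 minus log2 change in KYSE150 (horizontal axis) for the 7 genes that averaged at least 1 FPKM in each line; points are limma estimates, bars their SE, grey bands the range over all alternative settings and the dotted line the median of all tested genes. LOXL2, PLOD3 and P4HA2 lie right of 0 over their whole range, the band of PLOD1 crosses 0, and PLOD2 lies at -0.16.

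Of the genes for proteins that work with the hydroxylases in the endoplasmic reticulum, most rose in KYSE410 and fewer did in KYSE150. In KYSE150, 1 of 13 tested rose, 7 fell and 5 were not called, and in KYSE410, 9 of 12 rose, 1 fell and 2 were not called. Over all genes tested, 23.5% were called higher and 38.8% lower in KYSE150, and 31.2% and 51.9% in KYSE410. These shares also apply to the lists below, and no list was tested against them. The KYSE150 split depended on scaling and on a library: 3 rose and 3 fell with median-of-ratios scaling, and 3 rose and 7 fell without normoxia replicate 2. The KYSE410 split depended on scaling too: 7 rose and 4 fell after rescaling to a common sum, and 11 rose and 1 fell with median-of-ratios scaling. The difference in response was called higher in KYSE410 for 9 of the 12 that averaged at least 1 FPKM in each line, lower for 1 and not called for 2, with a median of 0.78. After rescaling to a common sum it was higher for 7 and lower for 3. PPIB (cyclophilin B), a prolyl isomerase of the collagen 3-hydroxylation complex, fell in KYSE150 to 168.8 ± 0.84 FPKM in hypoxia, against 323.6 ± 58.4 FPKM in normoxia (log2 change -0.92 ± 0.12, adjusted p = 0.0004011). PPIB rose in KYSE410 to 398.5 ± 6.80 FPKM in hypoxia, against 207 ± 2.04 FPKM in normoxia (log2 change 0.94 ± 0.03, adjusted p = 1.864e-08). P3H4, a non-enzymatic partner of the lysyl hydroxylase complex, fell by 0.93 ± 0.12 on the log2 scale in KYSE150 (adjusted p = 0.00036) and by 1.10 ± 0.06 in KYSE410 (adjusted p = 3.361e-07). P3H2, a prolyl 3-hydroxylase, rose by 0.68 ± 0.07 in KYSE150 (adjusted p = 7.558e-05), and FKBP14, another prolyl isomerase, fell by 0.46 ± 0.14 (adjusted p = 0.02102). FKBP14 rose by 0.22 ± 0.07 in KYSE410 (adjusted p = 0.01975). In KYSE410 CRTAP, a member of the 3-hydroxylation complex, rose by 1.12 ± 0.04 (adjusted p = 5.671e-08), and SERPINH1, the collagen chaperone HSP47, rose by 0.97 ± 0.04 (adjusted p = 1.437e-07).

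Genes of procollagen export and propeptide processing were split in both lines, as were all genes tested. In KYSE150 2 of 10 rose and 4 fell, near the shares over all genes tested (23.5% higher and 38.8% lower). In KYSE410 4 of 9 rose and 5 fell (31.2% and 51.9% over all genes tested). With median-of-ratios scaling these splits were 4 and 3 in KYSE150, and 4 and 3 in KYSE410. MIA2, which loads large cargo at exit sites of the endoplasmic reticulum, fell to 6.44 ± 0.35 FPKM in hypoxia, against 19.5 ± 0.76 FPKM in normoxia, in KYSE150 and to 8.76 ± 0.09 FPKM, against 41.9 ± 2.77 FPKM, in KYSE410 (log2 changes of -1.46 ± 0.08, adjusted p = 4.012e-06, and -2.13 ± 0.05, adjusted p = 8.456e-09). Its relative MIA3 fell in KYSE410 by 0.87 ± 0.06 (adjusted p = 1.974e-06). The coat subunit SEC23A rose by 0.54 ± 0.11 in KYSE150 (adjusted p = 0.004119) and by 0.41 ± 0.05 in KYSE410 (adjusted p = 4.834e-05). In KYSE150 KLHL12, a ubiquitin ligase adaptor for large coat carriers, fell by 0.47 ± 0.08 (adjusted p = 0.001004), and the coat subunit SEC24D fell by 0.41 ± 0.10 (adjusted p = 0.006875). BMP1, which removes the procollagen C-propeptide and also activates LOX, rose in KYSE410 by 0.60 ± 0.05 (adjusted p = 8.287e-06).

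Among genes for lysyl oxidase maturation, copper supply and matrix partners, 1 of 7 tested rose and 2 fell in KYSE150, and 1 of 4 rose and 2 fell in KYSE410. With median-of-ratios scaling the KYSE410 counts were 2 and 0. The copper importer SLC31A1 fell to 14.7 ± 0.31 FPKM in hypoxia, against 26.6 ± 3.72 FPKM in normoxia, in KYSE150 (adjusted p = 0.0003547), and the copper chaperone ATOX1 fell by 0.51 ± 0.13 (adjusted p = 0.01113). In KYSE410 ATOX1 fell by 0.25 ± 0.04 (adjusted p = 0.000862), and FN1, a matrix protein that binds LOX, rose by 0.84 ± 0.05 (adjusted p = 8.05e-07).

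Of the genes for ascorbate and iron supply, 2 of 9 rose and 4 fell in KYSE150, and 5 of 9 rose and 3 fell in KYSE410. Under the other scalings and the length trend, 2 rose and 3 to 5 fell in KYSE150, and 5 or 6 rose and 1 to 4 fell in KYSE410. The glucose transporters SLC2A1 and SLC2A3, which also carry dehydroascorbate, rose in both lines: SLC2A1 by 1.86 ± 0.07 in KYSE150 (adjusted p = 1.163e-06) and 1.49 ± 0.03 in KYSE410 (adjusted p = 5.866e-09), and SLC2A3 by 2.94 ± 0.10 (adjusted p = 8.374e-07) and 3.94 ± 0.06 (adjusted p = 1.746e-09). In KYSE150 SLC2A3 averaged 11.4 FPKM in hypoxia and 0.614 FPKM in normoxia, so it reached the level for testing through its hypoxia libraries only. TXNRD1, a reductase that can recycle ascorbate, fell to 37.8 ± 3.16 FPKM in hypoxia, against 188.1 ± 22.9 FPKM in normoxia, in KYSE150 and to 40.6 ± 2.32 FPKM, against 385.1 ± 13.3 FPKM, in KYSE410 (adjusted p = 2.961e-06 and 1.638e-09). FTL, the ferritin light chain, rose by 1.76 ± 0.05 in KYSE410 (adjusted p = 1.587e-08), and the transferrin receptor TFRC fell by 0.58 ± 0.15 in KYSE150 (adjusted p = 0.01096).

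Other enzymes of the same 2-oxoglutarate dioxygenase class did not move as a block: 6 of 10 rose and 3 fell in KYSE150, and 4 of 9 rose and 3 fell in KYSE410 (4 and 5 after rescaling to a common sum, 5 and 3 with median-of-ratios scaling). Over all genes tested, 23.5% were called higher and 38.8% lower in KYSE150, and 31.2% and 51.9% in KYSE410. EGLN3, counted among those that rose in KYSE150, averaged 3.78 FPKM in hypoxia and 0.775 FPKM in normoxia. It reached the level for testing through its hypoxia libraries only. KDM3A, a histone H3 lysine demethylase, rose by 2.99 ± 0.11 in KYSE150 (adjusted p = 9.912e-07) and 2.24 ± 0.06 in KYSE410 (adjusted p = 1.11e-08). JMJD6, a lysyl hydroxylase of nuclear proteins, rose by 1.98 ± 0.09 in KYSE150 (adjusted p = 1.806e-06) and 1.04 ± 0.11 in KYSE410 (adjusted p = 3.286e-05), and the demethylase KDM4B rose by 1.97 ± 0.09 in KYSE150 (adjusted p = 2.273e-06). OGFOD1, a prolyl hydroxylase of a ribosomal protein, fell by 1.49 ± 0.10 in KYSE150 (adjusted p = 1.276e-05) and 1.63 ± 0.04 in KYSE410 (adjusted p = 9.487e-09). EGLN2, a prolyl hydroxylase of the hypoxia-inducible factors, fell by 0.99 ± 0.21 in KYSE410 (adjusted p = 0.002078).

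The collagen chains, substrates of these enzymes, were split as well. In KYSE150 3 of 11 rose and 4 fell (23.5% and 38.8% over all genes tested). In KYSE410 3 of 10 rose and 6 fell (31.2% and 51.9% over all genes tested). COL6A1, counted among those that rose in KYSE410, averaged 1.34 FPKM in hypoxia and 0.897 FPKM in normoxia. It reached the level for testing through its hypoxia libraries only. The KYSE410 counts were 4 and 3 with median-of-ratios scaling, 5 and 1 with quantile normalization and 6 and 0 with the length trend removed, so no direction of the group held across scalings; in KYSE150 they were 3 and 2 under each of these 3 settings, and 3 and 6 without normoxia replicate 2. COL7A1, the anchoring fibril collagen, fell by 0.36 ± 0.06 in KYSE150 (adjusted p = 0.001791) and rose by 1.87 ± 0.07 in KYSE410 (adjusted p = 6.875e-08). COL17A1, a hemidesmosome collagen, rose to 92.05 ± 1.51 FPKM in hypoxia, against 20.1 ± 0.84 FPKM in normoxia, in KYSE410 (adjusted p = 3.03e-09). The basement membrane chain COL4A2 rose by 0.44 ± 0.10 in KYSE150 (adjusted p = 0.004576), COL6A2 rose by 0.29 ± 0.08 (adjusted p = 0.0127) and COL5A1 fell by 0.31 ± 0.11 (adjusted p = 0.03682). COL4A2 fell by 0.12 ± 0.05 in KYSE410 (adjusted p = 0.04785). COL12A1 fell by 0.56 ± 0.06 (adjusted p = 3.997e-05) and COL4A1 by 0.40 ± 0.08 (adjusted p = 0.00207) in KYSE410.

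Genes with a pattern most like each member were found by Pearson's r of log2(FPKM + 1) over the 12 libraries, which share 4 groups, among 6699 other genes (6700 for LOXL1) with means of at least 5 FPKM in both tables; r is given as a description with no test. P4HA1 was most like BHLHE40 (r = 0.997), ALDOC (0.996) and GPI (0.995). LOXL2 was most like HSPA8 (0.997), TUBB (0.994) and PABPC1 (0.993), and P4HA2 was most like HSPA8 (0.995), PTMA (0.993) and PABPC1 (0.993). PLOD1 was most like IGFBP3 (0.998), TRIM29 (0.997) and EHMT2 (0.997), and PLOD2 was most like ANKRD10 (0.991), MSH3 (0.989) and SLC2A1 (0.988). PLOD3 was most like GFUS (0.983), INO80C (0.976) and ISCA1 (0.972), and LOXL1 had the lowest values, with TMEM109 (0.959), FAIM (0.95) and CAPG (0.949).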

How the data were processed

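RNA-seq of 12 libraries was analysed from the 2 tables the authors deposited, 1 per line, whose FPKM values were read as such from their range and column sums. Per the submitters' processing notes, bcl2fastq 2.20, fastp 0.22.0, HISAT2 2.2.1 and build hg38 were used; which counter, annotation and strandedness they used is not given in the sources used here. Groups came from the sample labels. Genes averaging 1 FPKM or more over a fit's libraries were tested with limma 3.58.1 (R 4.3.3) with a mean trend on log2(FPKM + 1), which understates changes of low genes, and p-values were Benjamini-Hochberg adjusted over all genes tested. The 2 lines were fitted alone for hypoxia over normoxia, and all 12 libraries together for comparisons between lines and for the difference in response; members under 1 FPKM on average in either line were given no test between lines. The fits were tested on simulated data. Ratios of means, sums and shares were computed on FPKM. Gene positions came from GENCODE 29 and promoter windows from RefSeq (GRCh38.p14). The members and lists were chosen with earlier results of these data known. Beside the 10 members, the text names up to 4 called genes per list and line by largest absolute log2 change, among genes averaging 5 FPKM or more whose groups do not overlap, and the 3 most alike genes per member; P4HB is described in both lines as the partner of the alpha subunits, and overlapping genes and markers are named beside the results they touch. PPIB, FKBP14 and COL4A2 are also given for the line in which they were called in the opposite direction. EGLN3 and COL6A1 are named because they reached the level for testing through their hypoxia libraries only. The alternatives were other scalings, pseudocounts, filters, limma without the trend, a replicate block, a transcript length trend, a joint fit and leaving out each library. Counts per list under other scalings and without KYSE150 normoxia replicate 2, and the minimum of 1 FPKM in each line, were added after seeing the data.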

Additional observations from a re-analysis of the deposited data

Results flagged for a closer look

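The change in hypoxia differed between KYSE410 and KYSE150 for 6 of the 7 members that averaged at least 1 FPKM in each line, by the test of that difference in the joint limma fit (KYSE410 minus KYSE150, log2 scale). The difference was 1.16 for LOXL2, 0.88 for PLOD3, 0.85 for P4HA2, 0.64 for LOXL1, 0.43 for P4HA1 and 0.21 for PLOD1. For PLOD3 and LOXL1 the changes in the 2 lines had opposite signs, at 0.33 in KYSE410 and -0.55 in KYSE150 for PLOD3 and at 0.32 and -0.32 for LOXL1. LOXL1 was low, its groups overlapped in KYSE410, and its call was lost under 7 of 15 alternatives in each line. Exons of ZNHIT1 overlap PLOD3, and ZNHIT1 stood in the same order as PLOD3 in both lines. The PLOD3 change in KYSE410 was 0.10 after rescaling to a common sum, and PLOD1 and P4HA1 were not called for the difference there (adjusted p = 0.8038 and 0.1634). Differences of this kind were common in these tables, with 27.3% of all genes tested called higher and 36.0% lower. In KYSE410 the hypoxia and normoxia libraries carry sample numbers 56 to 58 and 38 to 40, and the part of a difference between sets of libraries was not tested.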

How the results depend on the processing

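Of 38 member results (between lines only for members averaging at least 1 FPKM in each line), 31 kept their direction and their side of the threshold under every alternative run. Of 706 alternatives of these results, 668 left the direction and the call as they were and 34 kept the direction and lost the call. With a mean of at least 5 FPKM, fewer genes were tested and the calls over all genes numbered 6608 for KYSE410 over KYSE150 in normoxia and 6695 in hypoxia; LOXL1 and LOXL4 then gave no value. The sign turned for LOXL1 between lines in hypoxia with quantile normalization (0.0031). It also turned for PLOD1 in the difference in response after rescaling to a common sum (-0.026), where the call was lost too (adjusted p = 0.8038). The cause was not tested. LOXL1 between lines in hypoxia became called after rescaling to a common sum (adjusted p = 0.02195) and without KYSE410 normoxia replicate 1 (adjusted p = 0.04294). Beside the lost calls given with the results, LOXL1 was not called in KYSE150 with median-of-ratios scaling (adjusted p = 0.1319), quantile normalization (0.1891) or no filter (0.0512), nor in KYSE410 with no filter (0.118). PLOD2 between lines in hypoxia was not called with quantile normalization (0.05191), a common sum (0.4217) or no filter (0.05231), and PLOD1 in the difference was not with no filter (0.05155) or without the limma trend (0.05902). The labels do not say whether the replicate numbers pair the libraries. Deviations from the group means of same-numbered libraries correlated between -0.069 and 0.084, and those of differently numbered libraries between -0.097 and 0.11. With 3 libraries per group this cannot show whether cultures were matched. With the replicate block, limma called 7757 genes in KYSE150, 9931 in KYSE410 and 7848 for the difference in response, and the adjusted p was 0.05445 for LOXL1 in KYSE410 and 0.07548 for PLOD1 in the difference. A transcript length was known for 96% to 96.2% of genes tested, and log2 change correlated with length across genes at a Spearman rho of 0.059 in KYSE150 and -0.272 in KYSE410. Depth is unknown, so no counting error can be given for the low values of LOX in KYSE410 and LOXL4 in KYSE150.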
